A study of Mus musculus with 17 samples.

Results

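The data described here are the response of quiescent NIH 3T3 cells, fibroblasts derived from mouse embryos, to the PI3K inhibitor LY294002. They comprise 4 of the 17 arrays of the series: vehicle, LY294002 at 7.5 µM, PDGF at 25 ng/ml for 1 h, and PDGF with LY294002 at the same doses. LY294002 was thereby set against vehicle in the absence of PDGF and against PDGF alone in its presence. The other 4 arrays of the same experiment, SU6656 at 2 µM (an inhibitor of Src family kinases) and UO126 at 10 µM (an inhibitor of MEK), each without and with PDGF, entered the same fit and served for comparison. Every condition was measured on 1 array. How long the cells were kept in LY294002 is not given in the sources used here. Changes were examined across 15838 probe sets, which hold 9218 of the 12394 genes named on the array.

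Phosphoinositide 3-kinase (PI3K) is recruited to activated receptors such as the PDGF receptor and makes the lipid that brings the kinase AKT to the membrane. AKT keeps the FOXO transcription factors out of the nucleus and, through the kinase complex mTORC1, promotes protein, lipid and amino acid synthesis. mTORC1 acts in part through the transcription factors SREBP, which drives sterol and fatty acid synthesis genes, and ATF4, which drives genes of amino acid supply. LY294002 competes with ATP in PI3K and is also known to inhibit other kinases, among them mTOR and casein kinase 2, so its effects are those of the compound at this dose.

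Values are array signal units after quantile normalisation. Signal medians of the 8 arrays as deposited lay between 174.7 and 198.4, and Spearman's rho between arrays was 0.945 to 0.962. Of 16 fibroblast markers on the array, 14 were measured, among them Col1a2 at 39008 units on each of the 4 arrays and Vim at 23869 to 27877. Quantile normalisation gives equal ranks equal values, so the constant Col1a2 reading shows an unchanged rank only. The median LY294002 effect of the 14 markers was -0.01 on the log2 scale (0.13 after scaling to a common median) and none passed the test. Markers of leukocytes, epithelium, endothelium, fat and muscle were measured for 5, 5, 3 and 4 genes, the last count covering fat and muscle together, and none of these passed. The 3' to 5' signal ratio of Gapdh, a measure of RNA integrity, was 0.739 to 0.787 over the 8 arrays. That of actin was 1.37 with vehicle and 1.29 with LY294002, and 1.23 with PDGF and 1.17 with PDGF and LY294002, the lowest of the 8 arrays, which reached 1.40. Its part in the results was not tested.

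LY294002 raised the histone genes H2ac19 and H1f2 and the stress gene Nupr1, each more than 2-fold at a called probe set. It lowered genes of the endoplasmic reticulum (ER) such as Herpud1 and Xbp1, the amino acid genes Cth and Trib3, and Ddit4. In bulk RNA, fewer cells of a kind and less RNA per cell cannot be told apart. The LY294002 effect is the mean of the 2 log2 differences, LY294002 over vehicle and PDGF with LY294002 over PDGF, and was tested with limma in an additive fit over the 8 arrays, and p-values were adjusted over every probe set tested by the Benjamini-Hochberg method. At an adjusted p under 0.05, 32 probe sets rose (0.202% of those tested) and 49 fell (0.309%). They stand for 21 named genes that rose and 39 that fell, and 14 called probe sets had no single gene name. All 81 changed in the same direction in quiescent cells and under PDGF. The test favours such probe sets, because a difference between the 2 states enters its residual. At the brightest probe set of each gene, 16 of the 21 and 29 of the 39 passed.

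These calls rest on a residual of 3 degrees of freedom and on how limma pooled the variance. Without the trend of variance on signal no probe set passed (0, against 1747 at an unadjusted p under 0.05), and the smallest adjusted p was 0.297. Leaving out the vehicle, LY294002, PDGF or PDGF with LY294002 array kept 4 and 4, 6 and 4, 3 and 1, and 3 and 3 probe sets higher and lower, respectively. Herpud1 and H2ac19 alone among the 60 genes passed without any 1 of the 8 arrays. Every one of the 60 kept its direction without each array, which is likely for genes chosen by their effect on these same arrays. After scaling to a common median 27 probe sets rose and 27 fell. The residual also contains any difference between the response to LY294002 with and without PDGF, and the arrays are not stated to come from separate cultures, so p-values measure the spread between these arrays only.

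**Figure D1:**
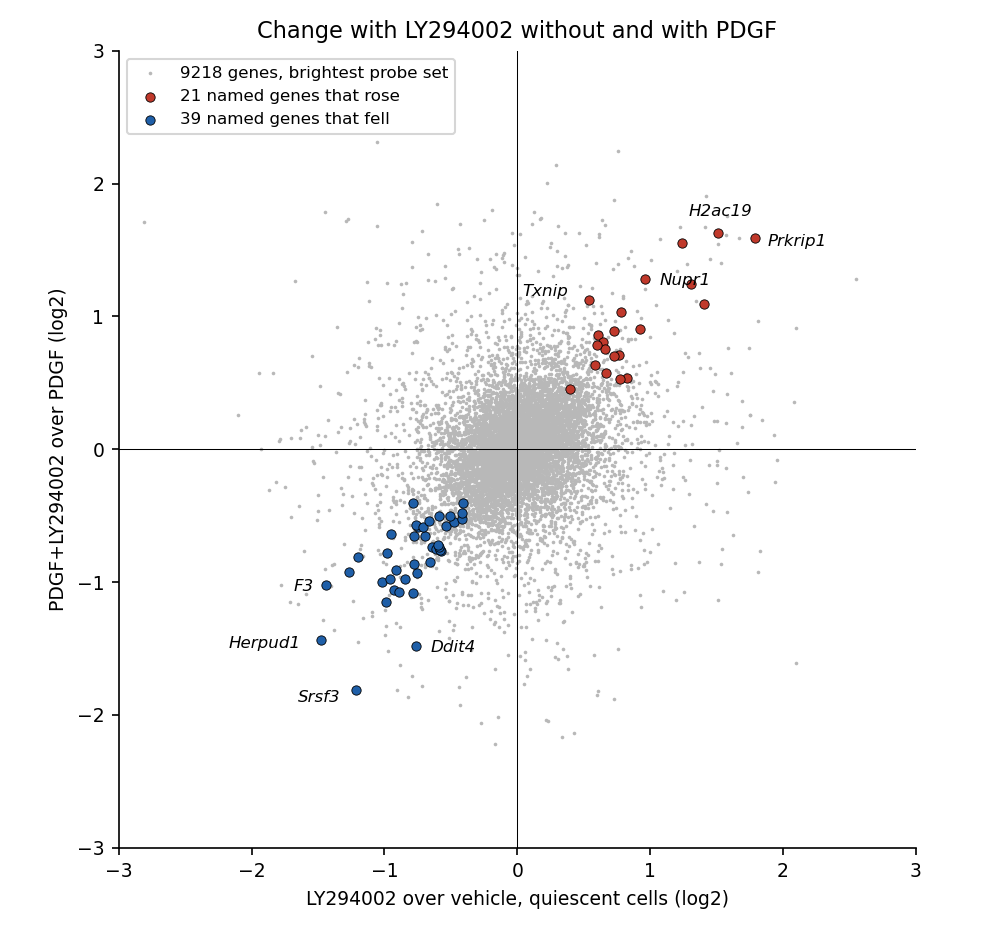
Change with LY294002 in quiescent cells (x axis, log2 of LY294002 over vehicle) and under PDGF (y axis, log2 of PDGF with LY294002 over PDGF), 1 array per condition. Grey points are the 9218 genes at their brightest probe set, red points the 21 named genes that rose and blue points the 39 that fell, each at the called probe set that changed most. Called genes lie in the quadrants where both changes have the same sign, which the test favours.

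Histone transcripts were among the largest rises. H2ac19, a core histone H2A gene, had 1711 units with vehicle and 4944 with LY294002, and 1686 with PDGF and 5297 with PDGF and LY294002. Both LY294002 arrays were high, and the other 6 arrays lay between 1686 and 2899. The rise was 2.97-fold at this probe set, the brighter of 2 (1.57 ± 0.12 on the log2 scale, effect ± SE, adjusted p = 0.00125). The other H2ac19 probe set differed by 0.54 ± 0.11 without passing (adjusted p = 0.0677). It read 1053 and 1501 units in quiescent cells and 1004 and 1515 under PDGF. The brightest probe set of H1f2, a linker histone H1 gene, read 4886 units with vehicle, 12442 with LY294002, 6477 with PDGF and 14108 with PDGF and LY294002. It rose by 1.23 ± 0.08 (adjusted p = 0.000718). Histone genes of a family are near-identical, so such a signal may belong to more than the named gene. With UO126 it read 8020 and 10080 units without and with PDGF, between the vehicle and the LY294002 arrays. Of 11 measured histone genes, a list chosen after the values were seen, both called members rose, 8 were higher in both states, and the median effect was 0.30. Over all genes 0.174% were called higher at the brightest probe set, 32.1% were higher in both states and the median was 0.01. The 11 histone genes also had positive medians with SU6656 and UO126, of 0.11 and 0.25. Probe sets that match several H2b or H3 genes, and so cannot be given to one gene, also rose, those of H2b and H3 clusters by 1.22 to 1.45 and both of the H3f3 family by 0.51 and 0.78.

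Nupr1, a small chromatin protein induced by nutrient and ER stress, read 2352 units with vehicle, 4614 with LY294002, 1717 with PDGF and 4230 with PDGF and LY294002. It rose 2.18-fold (1.12 ± 0.14, adjusted p = 0.0107), and neither LY294002 array overlapped the range of 1533 to 2406 units on the other 6. Ypel3, a growth-suppressing gene, went from 788 to 1529 units in quiescent cells and from 654 to 1255 under PDGF (0.91 ± 0.13, adjusted p = 0.0156). Again the 6 arrays without LY294002 were lower, at most 969.9 units. Txnip, which inhibits thioredoxin and restrains glucose uptake, was higher with LY294002 in both states and low on all PDGF arrays. Its called probe set read 2210 and 3229 units in quiescent cells and 335 and 774 under PDGF (0.83 ± 0.15, adjusted p = 0.04998). Its brightest probe set differed more, by 1.30 ± 0.28, but did not pass (adjusted p = 0.0884).

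The other rises were smaller. Hbp1, a transcriptional repressor that blocks cell cycle entry, rose by 0.68 ± 0.12 at 1 of its 3 probe sets, while its brightest changed by 0.22 (adjusted p = 0.371). Mknk2, a kinase that phosphorylates the cap-binding factor eIF4E, rose by 0.81 ± 0.14. The non-coding RNAs Neat1, the scaffold of paraspeckles, and Gas5, a snoRNA host transcript that accumulates in growth arrest, rose by 0.71 ± 0.06 and, at 1 of 4 probe sets, 0.43 ± 0.07. Neat1 also rose with UO126, by 0.52 ± 0.06 (adjusted p = 0.0370). Its differences from UO126 and SU6656 did not pass (adjusted p = 0.209 and 0.0657). It read 13807 units with PDGF and UO126, above the 13636 with LY294002 alone. Another Gas5 probe set differed the other way, by -0.53 ± 0.16 (adjusted p = 0.200). Gas5 read 9663 and 12723 units in quiescent cells and 8309 and 11399 under PDGF, so its arrays with SU6656 (11627 without PDGF) overlapped those with LY294002. Stk10 (0.91 ± 0.13), Pnrc1 (0.74 ± 0.11), Medag (0.74 ± 0.10), Metrnl (0.73 ± 0.09), the metallothionein gene Mt2 (0.72 ± 0.11), Ctdsp2 (0.69 ± 0.11 at 1 of 3 probe sets), the ubiquitin-conjugating enzyme gene Ube2b (0.65 ± 0.10), the splicing kinase gene Clk1 (0.62 ± 0.11) and Polr1d (0.61 ± 0.10) also rose.

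Among the largest rises, 3 have a limit of their own. Prkrip1 rose 3.23-fold (1.69 ± 0.25, adjusted p = 0.0217) from 64.1 to 309.7 units in quiescent cells and from 39 to 191 under PDGF. It was as high with SU6656 (223 and 253 units) and UO126 (353 and 266), so the vehicle and PDGF arrays were the low ones. Tm2d2 and Hnrnpa1 rose by 1.27 and 1.25 at 1 of 8 and 1 of 2 probe sets. At their brightest probe sets the changes were 0.27 and 0.20, with adjusted p of 0.316 and 0.807.

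Genes of the ER made up many of the falls. The unfolded protein response is the programme by which cells raise ER chaperones and the machinery that degrades misfolded ER proteins. Herpud1, an ER membrane protein of that degradation pathway, read 2507 units with vehicle and 875 with LY294002, and 3403 with PDGF and 1236 with PDGF and LY294002. The other 4 arrays lay between 2236.5 and 3445 units, clear of both LY294002 arrays. The fall was 2.75-fold (-1.46 ± 0.10, adjusted p = 0.000810). Its other probe set fell by 1.11 ± 0.13 (adjusted p = 0.00952). Xbp1, a transcription factor of the response, read 8048 and 4466 units in quiescent cells and 9969 and 5052 under PDGF (-0.91 ± 0.08, adjusted p = 0.00300). Again the other 4 arrays, at 7110 to 8824 units, did not overlap those with LY294002.

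Manf, a secreted ER stress factor, fell from 3450 to 2122 units and from 3986 to 2528 under PDGF (-0.67 ± 0.09, adjusted p = 0.0156). Dnajc3, a co-chaperone and inhibitor of the kinase PERK, fell from 1005 to 502 units and from 1070.5 to 674 under PDGF at its called probe set (-0.80 ± 0.13, adjusted p = 0.0333). At its brightest probe set the change was -0.38 (adjusted p = 0.295). Hspa5, which encodes the main ER chaperone BiP, fell by 0.47 ± 0.08 at 1 of 2 probe sets (adjusted p = 0.0496), and its brightest changed by -0.44 without passing (adjusted p = 0.112). On the called Hspa5 probe set, the array with PDGF and LY294002 (5102 units) was above that with SU6656 (4785), so the groups overlapped.

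Of the 19 unfolded protein response genes measured, 3 passed at their brightest probe set (Herpud1, Xbp1 and Manf), all lower, and 15 were lower in both states. The median effect was -0.33, against 0.01 over all genes, of which 29.5% were lower in both states and 0.31% were called lower. The SU6656 and UO126 medians of the same genes were -0.09 and -0.13. Dnajb9, an ER co-chaperone, differed by -0.74 ± 0.16 (adjusted p = 0.0879). Sdf2l1 differed by -0.64 ± 0.16 (adjusted p = 0.122). Ern1, Dnajb11 and Atf6 had positive effects that did not pass. The calreticulin gene Calr differed by -0.24 ± 0.06 (adjusted p = 0.133).

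**Figure D2:**
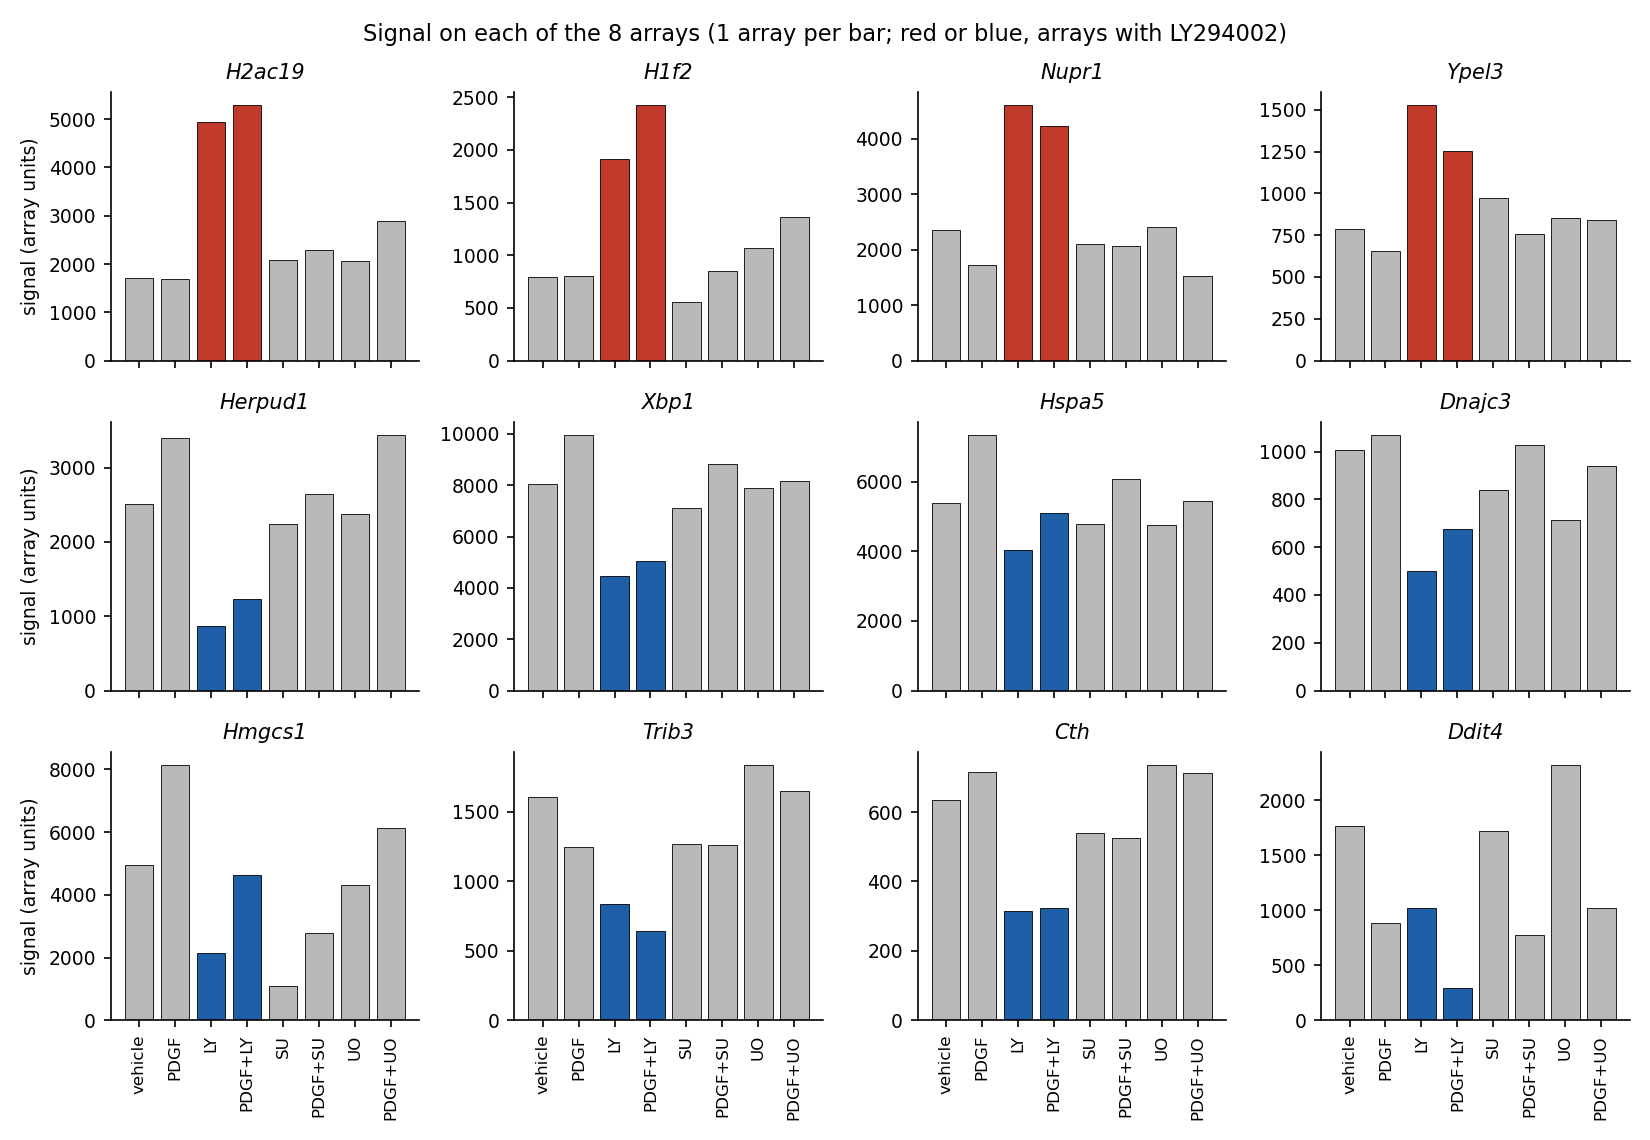
Signal (array units, linear axis from 0) of 12 named genes on each of the 8 arrays, each at the called probe set that changed most, 1 array per bar. The 2 arrays with LY294002 are red for genes that rose and blue for genes that fell. For Herpud1 and Xbp1 both LY294002 bars are below all others, whereas for Hmgcs1 the SU6656 bar is lower than the LY294002 bar within each PDGF state.

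Genes of the early secretory route were also among the falls. In a list of 42 genes of ER-associated degradation and COPII transport, chosen after the values were seen, 4 passed and all 4 were lower. Sec23b and Sec24d, subunits of the COPII coat that buds vesicles from the ER, fell by 0.84 ± 0.10 and 0.68 ± 0.09. Sec23b read 1808 and 1055 units in quiescent cells and 1921 and 991 under PDGF, and 1711 to 1855 on the other 4 arrays. Derl1, of the channel that returns misfolded proteins to the cytosol, fell by 0.51 ± 0.08, and the cargo receptor Surf4 by 0.55 ± 0.09. Both passed at their brightest probe set only, and their other probe sets were lower without passing. Of these 42 genes 27 were lower in both states, with a median effect of -0.18. Over all genes 29.5% were lower in both states and 0.31% were called lower.

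In a second list added after the values were seen, 41 genes of ER translocation, folding and glycosylation, 3 passed and fell. Gmppb, which makes GDP-mannose, went from 749 to 352 units and from 848 to 406.5 under PDGF (-1.01 ± 0.13, adjusted p = 0.0109), while the other 4 arrays held 737.8 to 860.5 units. The ribosome-binding protein gene Lrrc59 fell by 0.67 ± 0.09. Serp1, which protects newly translocated proteins under ER stress, fell by 0.67 ± 0.09 and, at its brightest probe set, by 0.59 ± 0.08. The median of this list was -0.11, and 23 of its genes were lower in both states, against 29.5% of all genes. Of all genes 0.31% were called lower. The translocon gene Sec61a1 differed by -0.59 ± 0.12 without passing (adjusted p = 0.0834). Uso1 and Rab1a, which act between ER and Golgi, fell by 0.55 ± 0.09 and, at 1 of 2 probe sets, 0.69 ± 0.12.

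Among ATF4 targets and genes of amino acid supply, Cth and Trib3 fell and Nupr1 rose. Cth, the last enzyme of cysteine synthesis from methionine, read 635 units with vehicle, 316 with LY294002, 715 with PDGF and 324 with PDGF and LY294002. The 6 arrays without LY294002 were all at 525.7 units or more. It fell by 1.00 ± 0.14 (adjusted p = 0.0156). Trib3, a pseudokinase that binds AKT, fell from 1609.8 to 839.5 units and from 1245 to 645 under PDGF (-0.91 ± 0.12, adjusted p = 0.0155). Of 31 measured genes these 3 passed, while 0.31% of all genes were called lower and 0.174% higher. In this list 22 genes were lower in both states, against 29.5% of all genes, with a median effect of -0.32. SU6656 and UO126 had medians of -0.06 and 0.03 on the same list. Gpt2, an alanine aminotransferase, differed by -0.91 ± 0.16 (adjusted p = 0.0509), and Atf4 itself by -0.33 ± 0.08 (adjusted p = 0.112). Asns and Phgdh, enzymes of asparagine and serine synthesis, differed by -0.19 and -0.11 without passing.

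Ddit4, which encodes the mTORC1 inhibitor REDD1, was counted among the FOXO targets but fell. It read 1766 and 1025 units in quiescent cells and 882 and 293 under PDGF (-1.12 ± 0.16, adjusted p = 0.0217). The PDGF arrays with SU6656 and UO126 were also low, at 774 and 1018 units, and the lowest of the 8 arrays was PDGF with LY294002. The quiescent LY294002 array (1025 units) was above these PDGF arrays.

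Among sterol and fatty acid synthesis genes Msmo1, Scd2 and, at 1 of 4 probe sets, Hmgcs1 fell with LY294002. Msmo1, a sterol methyl oxidase, read 4016 and 2350.5 units in quiescent cells and 5901 and 3957 under PDGF (-0.67 ± 0.10, adjusted p = 0.0291). With SU6656 it read 1392 and 2547 units. The difference LY294002 minus SU6656 was 0.68 ± 0.10 (adjusted p = 0.0227), and that against UO126 was -0.59 (adjusted p = 0.0314). Hmgcs1, the cholesterol pathway's HMG-CoA synthase, fell by 1.00 ± 0.16 at its called probe set and differed by -0.66 at its brightest (adjusted p = 0.107). Aacs, which activates ketone bodies for lipid synthesis, fell by 0.72 ± 0.12, and the desaturase Scd2 fell by 0.41 ± 0.06. Of 27 list genes, Msmo1 and Scd2 passed, while 0.31% of all genes were called lower. In this list 22 genes were lower in both states, against 29.5% of all genes, and the median effect was -0.36. The medians were -0.48 with SU6656 and -0.06 with UO126. By the direct test 4 of the 27 genes were higher than with SU6656 and 3 lower than with UO126. Over all 9218 genes these counts were 31 and 59. With LY294002, Sqle (-0.54 ± 0.10, adjusted p = 0.0585) and Sc5d (-0.59 ± 0.12, adjusted p = 0.0774) were also lower without passing.

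**Figure D3:**
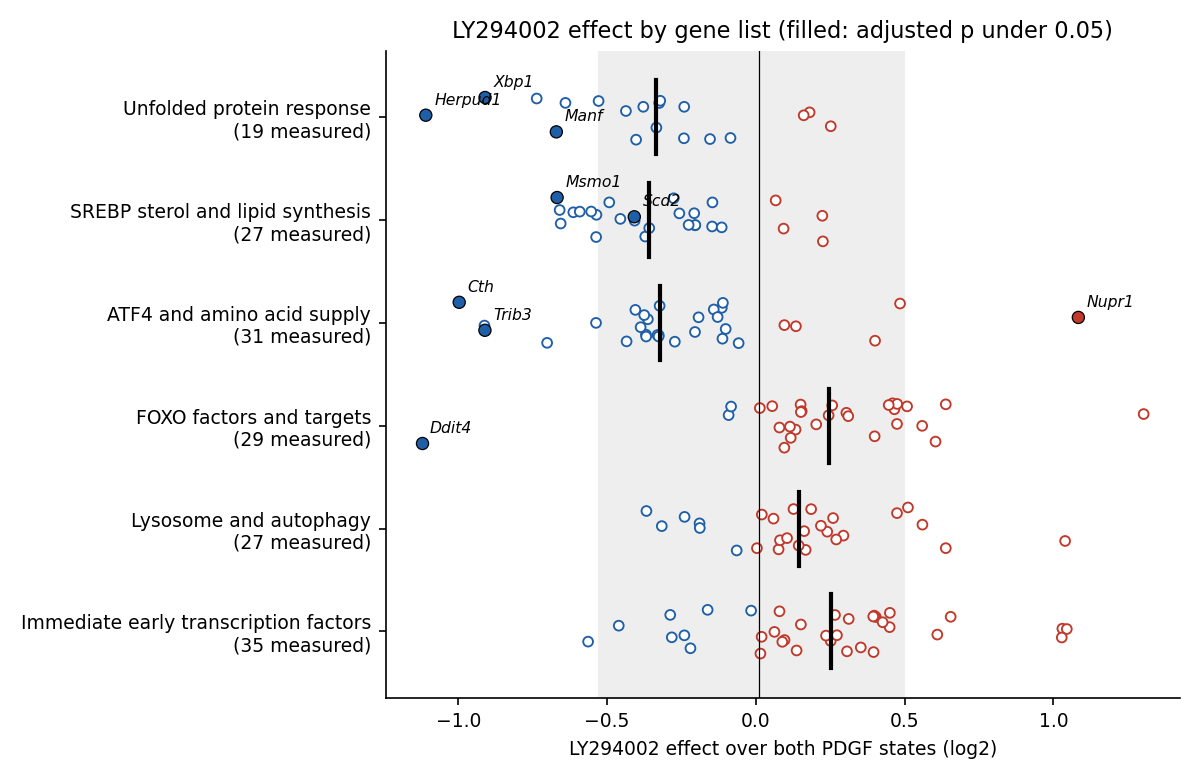
LY294002 effect (log2, mean of both PDGF states) of the measured members of 6 gene lists at their brightest probe sets, with filled points for genes at an adjusted p under 0.05. The thick bar is the list median, the thin line the median of all genes and the grey band their 5th to 95th percentile. The medians of the unfolded protein response, SREBP and ATF4 lists are -0.33, -0.36 and -0.32, and that of the FOXO list is 0.24.

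FOXO targets, which AKT holds down, had a positive median of 0.24, but none of the 29 measured genes passed upward at its brightest probe set. Of them 15 were higher in both states, against 32.1% of all genes, and 1, Ddit4, was lower in both, against 29.5%. Gabarapl1, an autophagy gene, read 1752 and 2970 units in quiescent cells and 1395 and 2027 under PDGF (0.64 ± 0.11, adjusted p = 0.0509). Map1lc3b, its relative on autophagosomes, differed by 0.47 ± 0.10 (adjusted p = 0.0820). Ccng2, Pink1 and Foxo1 differed by 0.56, 0.60 and 0.46, with adjusted p of 0.310, 0.188 and 0.285. None of 24 measured PI3K and AKT pathway components passed (median 0.03). Of 27 lysosome and autophagy genes 17 were higher in both states, again against 32.1% of all genes, and none passed (median 0.14). The median of these genes was as high with SU6656, at 0.15, and was 0.07 with UO126. Their largest value with LY294002 was that of Tfeb, the lysosomal transcription factor, at 1.04 ± 0.30 (adjusted p = 0.179).

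Other falls included genes of coagulation, matrix and the cytoskeleton. F3, which encodes tissue factor, read 483 and 156 units in quiescent cells and 1561 and 751 under PDGF (-1.23 ± 0.21, adjusted p = 0.0390). With SU6656 and no PDGF it was also low, at 197 units. Adamts1, a matrix protease, went from 1422 to 570 units and from 1494.5 to 771 under PDGF (-1.09 ± 0.12, adjusted p = 0.00767). Its SU6656 arrays were also low, at 879 and 909.8 units, and its difference from SU6656 did not pass (-0.41 ± 0.12, adjusted p = 0.202). The UO126 arrays were the highest, at 2134.5 and 2262 units. The sulfate transporter gene Slc26a2 fell by 1.07 ± 0.17, and its 2 LY294002 arrays, at 269 and 247 units, were below the range of 486 to 695 on the other 6.

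The beta-tubulin gene Tubb6 fell from 995 to 488 units and from 2011 to 1155 under PDGF (-0.88 ± 0.11), and the alpha-tubulin gene Tuba1a by 0.60 ± 0.09. These were both called members of 14 measured tubulins, a list added after the values were seen, with a median of -0.07. Of all genes 0.31% were called lower. Srm, the spermidine synthase, fell by 0.65 ± 0.11 and the initiation factor gene Eif1a by 0.66 ± 0.11. Steap1 (-0.96 ± 0.15 at 1 of 2 probe sets), Ss18l2 (-0.98 ± 0.12), Jdp2 (-0.75 ± 0.13), Wdr6 (-0.67 ± 0.10 at 1 of 2), Tceal8 (-0.66 ± 0.11), Gas1 (-0.59 ± 0.10), Hnrnpa2b1 (-0.51 ± 0.08 at 1 of 4) and, at 1 of several probe sets, Armcx2 (-0.82 ± 0.13) and Morf4l2 (-0.45 ± 0.07) fell as well. Of the other Hnrnpa2b1 probe sets 1 differed by -0.23 and 2 by 0.47 and 0.13, and none of these passed.

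Probe sets of 1 gene disagreed for Srsf3 and Actb. The splicing factor gene Srsf3 fell by 1.51 ± 0.18 and 0.96 ± 0.14 at 2 of 6 probe sets, and its brightest changed by -0.39 (adjusted p = 0.138). One of the 2 Actb probe sets fell by 0.93 ± 0.12, while the brightest differed by -0.01 (adjusted p = 0.955). That brightest probe set read 37180.6 units with vehicle, with PDGF, and with PDGF and LY294002. Quantile normalisation gives equal ranks equal values, so this shows an unchanged rank only. In 17 measured genes of splicing, SR factors among them, again a list added after the values were seen, the median was -0.20. Clk1 rose, and Hnrnpa2b1, which is not an SR factor, fell. Of all genes 0.174% were called higher and 0.31% lower.

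The promoters of called genes were searched, on both strands, for the FOXO element TGTTTAC, the sterol element TCACNCCAC, the E-box CACGTG, the CRE TGACGTCA and the C/EBP-ATF element TGATGCAA. Promoter sequences are from RefSeq (GRCm38.p6), 250 bases before to 50 after a start site, and were found for 18 of the 21 genes that rose (22 promoters) and 29 of the 39 that fell (36 promoters). These 4 are shown because they belong to the genes with the largest rise or fall whose promoter holds one of these motifs, with the matches in capitals. Nupr1 lies at chr7:126625421-126625720 on the minus strand, Ypel3 at chr7:126776713-126777012 and Herpud1 at chr8:94386179-94386478 on the plus strand, and Adamts1 at chr16:85803064-85803363 on the minus strand.
Nupr1: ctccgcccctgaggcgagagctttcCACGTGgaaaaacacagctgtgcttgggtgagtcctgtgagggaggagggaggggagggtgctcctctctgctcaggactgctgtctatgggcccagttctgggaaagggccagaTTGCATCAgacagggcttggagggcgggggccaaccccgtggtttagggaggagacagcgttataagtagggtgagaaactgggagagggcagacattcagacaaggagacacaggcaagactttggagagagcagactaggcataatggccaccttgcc
Ypel3: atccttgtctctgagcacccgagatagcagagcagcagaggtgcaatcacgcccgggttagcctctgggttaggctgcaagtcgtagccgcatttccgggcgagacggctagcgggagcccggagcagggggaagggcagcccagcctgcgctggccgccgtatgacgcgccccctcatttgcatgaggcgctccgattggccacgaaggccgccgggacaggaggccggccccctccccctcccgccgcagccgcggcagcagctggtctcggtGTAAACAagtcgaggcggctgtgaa
Herpud1: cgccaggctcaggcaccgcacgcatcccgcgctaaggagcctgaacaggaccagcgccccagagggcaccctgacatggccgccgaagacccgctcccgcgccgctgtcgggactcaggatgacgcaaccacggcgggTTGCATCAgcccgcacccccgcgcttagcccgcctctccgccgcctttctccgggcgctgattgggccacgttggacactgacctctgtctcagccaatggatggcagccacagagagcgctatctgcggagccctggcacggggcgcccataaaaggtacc
Adamts1: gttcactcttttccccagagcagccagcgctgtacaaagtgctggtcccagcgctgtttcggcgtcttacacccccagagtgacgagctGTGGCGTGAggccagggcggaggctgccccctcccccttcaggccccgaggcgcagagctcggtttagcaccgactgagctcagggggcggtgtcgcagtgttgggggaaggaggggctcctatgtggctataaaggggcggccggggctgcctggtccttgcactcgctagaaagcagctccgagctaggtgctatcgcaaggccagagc

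The Nupr1 promoter holds an E-box and a C/EBP-ATF element, the latter from -110 to -103 relative to the start. That of Herpud1 holds the same C/EBP-ATF letters from -112 to -105. The Ypel3 promoter has a FOXO element at 26 to 32, and the Adamts1 promoter a sterol element from -161 to -153. The FOXO element was in 3 of 22 promoters of genes that rose (13.6%, those of Ypel3, Txnip and Hbp1), 1 of 36 of genes that fell (2.78%) and 3.65% of all 32851 promoters. The sterol element was in 3 promoters of genes that fell (8.33%, Adamts1, Hmgcs1 and Sec24d), 0 of those that rose and 1.24% of all. The E-box was in 13.6% and 8.33% against 7.15% of all, the CRE in 9.09% and 0 against 1.79%, and the C/EBP-ATF element in 4.55% and 5.56% against 0.895%. These are counts of letters in a window, and over all promoters motifs overlapped in at most 4 matches for any pair.

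The ER stress element, CCAAT and CCACG separated by 9 bases, was added after the values were seen. It was in the promoters of Dnajc3 and Hspa5, in 5.56% of promoters of genes that fell, 0 of those that rose and 0.119% of all. The Dnajc3 match lies at chr14:118937827-118937845 and the Hspa5 match at chr2:34772025-34772043, both on the plus strand.
Dnajc3: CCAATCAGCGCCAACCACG
Hspa5: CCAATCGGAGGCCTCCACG

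The change with LY294002 in quiescent cells was next set beside the change under PDGF. These comparisons share no array, but with 1 array a group they have no test. In quiescent cells 119 genes were at least 2-fold higher with LY294002 (1.29% of 9218) and 145 at least 2-fold lower (1.57%). Under PDGF 147 were at least 2-fold higher (1.59%) and 165 at least 2-fold lower (1.79%). In both states 18 genes were at least 2-fold higher and 13 at least 2-fold lower, and 14 were at least 2-fold changed in opposite directions. Across genes, which are not independent replicates, Pearson's r between the changes was 0.217 and Spearman's rho 0.277. Pearson's r was 0.0888 across the 3073 dimmest genes, 0.327 across the next 3072 and 0.543 across the brightest, the last group holding genes with a mean of 684 units or more. Of the 31 genes changed at least 2-fold in both states, Prkrip1, H2ac19, H1f2 and F3 passed the test. Of the 27 that did not, 26 stayed under 300 units on all 4 arrays, and the exception was Rb1cc1, an autophagy initiation gene, which read 538 and 1151 units in quiescent cells and 446 and 986.5 under PDGF (1.07 ± 0.21, adjusted p = 0.0661).

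The interaction test compared the response to PDGF in LY294002 with the mean response in vehicle, SU6656 and UO126. No probe set passed (0, limma, 0% of those tested), 721 had an unadjusted p under 0.05, and the smallest adjusted p was 0.413. That value belonged to Abcb8, a mitochondrial transporter gene, which read 323 units on the quiescent LY294002 array and 845 to 1077 on the other 7. Gpaa1, of the GPI-anchor transamidase, read 1245 and 146.5 units in quiescent cells and 237.3 and 858 under PDGF, with 896 to 1265 on the other 4 arrays. In the other direction Ccn1, a matrix-associated immediate early gene, read 1368 units with LY294002 against 381 with vehicle, and 7876 against 6585 under PDGF. Its interaction was -2.24 ± 0.42 (unadjusted p = 0.000640, adjusted p = 0.999). Without the vehicle array or without the PDGF array 2 probe sets passed, those of Ccn1 (-2.62 in both, adjusted p = 0.00984 and 0.0150) and Gpaa1 (2.57, adjusted p = 0.0391 and 0.0198), since the comparison is then with SU6656 and UO126 alone. Of the other genes with the smallest interaction p in each direction, Snd1, Snrpb2, Cdc73 and Cxcl17 were more positive under PDGF. Itpkb, Iars, Ceacam1, Zfp36l2 and Neurl1a were more negative.

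The effect on PDGF-induced genes was measured in genes chosen on other arrays, as at least 2-fold higher with PDGF in both experiments of the 9-array table. These were 73 of the 5537 genes in both tables, and 55 of them were at least 2-fold higher with PDGF over vehicle here. In PDGF-treated cells their median change with LY294002 was -0.0011 on the log2 scale, with 37 of 73 lower. F3 was the only one at least 2-fold lower, and none was at least 2-fold higher. Among the 5537 genes 2677 were lower, 73 at least 2-fold lower and 54 at least 2-fold higher. In quiescent cells the median change was 0.26 and 53 of 73 were higher, 7 of them at least 2-fold. Among the 5537 genes 2817 were higher there, 43 of them at least 2-fold. The quiescent median was 0.160 for 171 genes chosen in the MEK experiment alone and 0.0861 for 181 chosen in the repeat alone. The response to PDGF had a median of 1.72 from vehicle and 1.38 from LY294002, was smaller from LY294002 in 50 of 73 genes, and was at least 2-fold in 52. It was smaller in 2805 of the 5537 genes in both tables. Gene by gene, the responses differ by the change under PDGF minus the quiescent change, so the smaller responses restate the values above.

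Immediate early genes with a higher quiescent level led this group. Egr1, a zinc finger transcription factor, read 513 units with vehicle, 1743 with LY294002, 5776 with PDGF and 7453 with PDGF and LY294002. Ccn2, a relative of Ccn1, read 665, 2070, 4777 and 8149 units in the same order. Epha2, Zfp36l2, Socs1 and Junb were the others at least 2-fold higher in quiescent cells, by 1.37, 1.13, 1.08 and 1.06. Each of these 7 genes was lower with LY294002 alone than with PDGF alone. The lowest under PDGF after F3 were Igha (-0.82), the growth factor gene Vegfa (-0.67), Pam (-0.45), the transcription factor gene Cebpb (-0.44), Bhlhe40 (-0.37), Ncan (-0.33) and Nfil3 (-0.32). The highest were Klf17 (0.94), Ccn2 (0.77), the activin subunit gene Inhba (0.72) and Rnf19b (0.62).

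Of 35 immediate early transcription factors none passed for the LY294002 effect, and the medians were 0.32 in quiescent cells and 0.09 under PDGF. Jun differed by 1.04 ± 0.19 (adjusted p = 0.0536), with 1306 and 3428 units in quiescent cells and 2773 and 4599 under PDGF. The phosphatase gene Dusp1 had 576 and 2013 units in quiescent cells and 1400 and 2404 under PDGF (1.25 ± 0.32, adjusted p = 0.131).

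**Figure D4:**
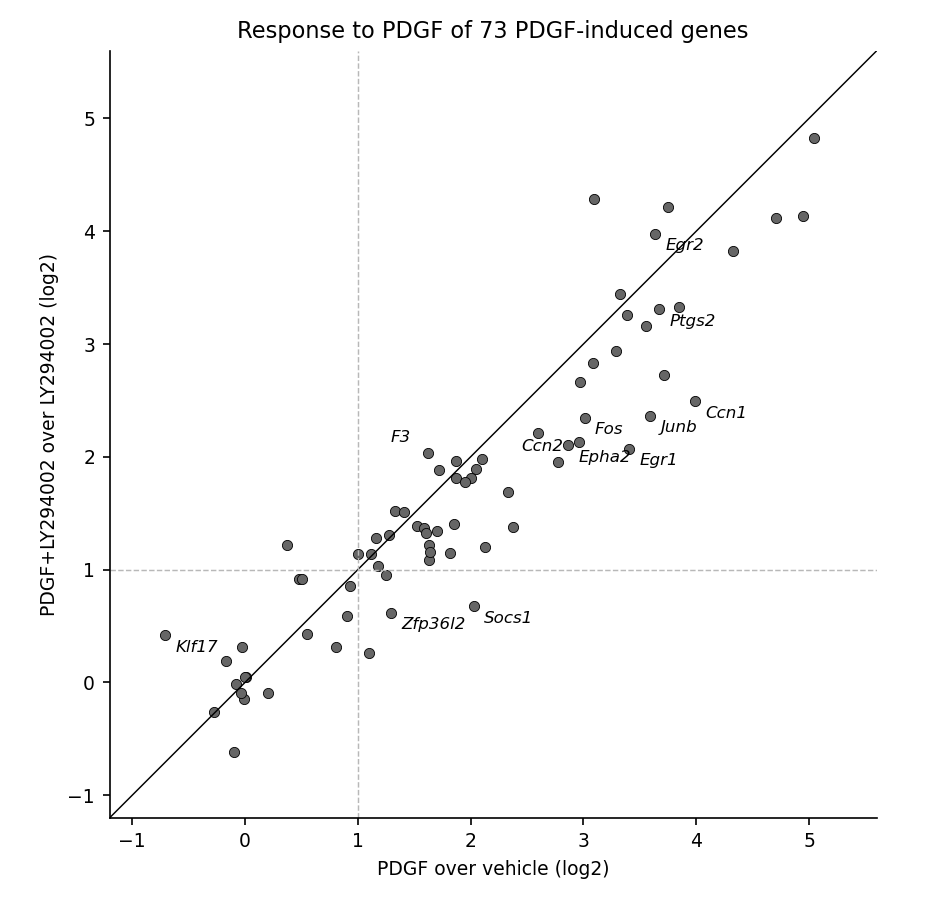
Response to PDGF of the 73 PDGF-induced genes chosen in the 9-array table, from vehicle (x axis, log2 of PDGF over vehicle) and from LY294002 (y axis, log2 of PDGF with LY294002 over LY294002), 1 array per condition. The solid line marks equal responses and the dashed lines 2-fold. Of the 73 points 50 lie below the solid line, among them Ccn1, Egr1, Junb and Socs1.

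LY294002 was finally compared with the other kinase inhibitors. All 3 share the vehicle and PDGF arrays, so the direct difference was tested. LY294002 exceeded SU6656 at 64 probe sets (0.404%) and was below it at 47 (0.297%), or 65 and 26 after scaling to a common median. Against UO126 it was higher at 123 (0.777%) and lower at 97 (0.612%). Against vehicle, SU6656 gave 0 higher and 17 lower calls, with 1268 probe sets at an unadjusted p under 0.05, and UO126 gave 3 and 4. Of the 21 genes that rose with LY294002, 10 were also higher than with SU6656, 15 higher than with UO126 and 8 higher than with both. Of the 39 that fell, 17, 23 and 14 were lower. These genes were chosen on the same 2 LY294002 arrays that enter the differences, which raises such counts, so they are not independent of the choice. Without the LY294002 array, 2 and 0 probe sets differed from SU6656 and 7 and 8 from UO126, and without the array with PDGF and LY294002 16 and 5, and 20 and 10. Without the SU6656 array 9 and 2 differed from SU6656, and without its PDGF array 20 and 1. Without the UO126 array 33 and 17 differed from UO126, and without its PDGF array 65 and 31. Without the vehicle or the PDGF array 43 and 24 or 42 and 24 differed from SU6656, and 66 and 58 from UO126 in either case. Without a trend of variance on signal neither difference gave a call (0, with 1834 and 2135 at an unadjusted p under 0.05).

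Herpud1, Xbp1, Manf and Gmppb were lower with LY294002 than with either of the other compounds. Relative to SU6656 Herpud1 dropped by 1.20 ± 0.10 (adjusted p = 0.00309), and it differed from UO126 by -1.43 ± 0.10 (adjusted p = 0.00147). In the same order Xbp1 differed by -0.73 and -0.75, Manf by -0.69 and -0.73, and Gmppb by -1.01 and -1.08. Ddit4 differed by -1.01 and -1.42, and Slc26a2 by -1.07 and -1.17. H1f2 was 1.59 and 0.82 higher, Nupr1 1.07 and 1.19, Tm2d2 1.73 and 1.08, and Pnrc1 0.94 and 1.01.

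Among the largest differences, Arf2 was 1.85 ± 0.19 higher with LY294002 than with UO126, where UO126 lowered it by 1.68 ± 0.19 (adjusted p = 0.0323) and LY294002 differed from vehicle by 0.16. Dusp6, a phosphatase that limits ERK, was 1.72 ± 0.25 higher than with UO126, with a UO126 effect of -1.07 that did not pass (adjusted p = 0.302). Against UO126, Ern1, Mfn1, Kansl1 and Dusp1 were higher by 1.66, 1.63, 1.62 and 1.60, while Cbs, Adamts1, Aar2 and F3 differed by -1.90, -1.67, -1.58 and -1.41. LY294002 itself changed Ern1, Mfn1 and Kansl1 by 0.25, -0.28 and 0.33 without passing. Some of these signals were dim. Without and with PDGF, Ern1 read 38.7 and 26.8 units and Mfn1 20.3 and 25.6 with UO126. With LY294002 Cbs read 29 and 15.7 units and Aar2 37.7 and 36.8. Against SU6656, Stc1, Adm, Cebpd and Fn1 were higher by 1.80, 1.68, 1.56 and 1.45, the last at the dimmer of the 2 probe sets of this fibronectin gene. Stc1 stayed at 238 units or less on all 8 arrays and Cebpd at 237.4 or less. Ndrg4 and Hspa4 differed from SU6656 by -1.19 and -1.06.

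**Figure D5:**
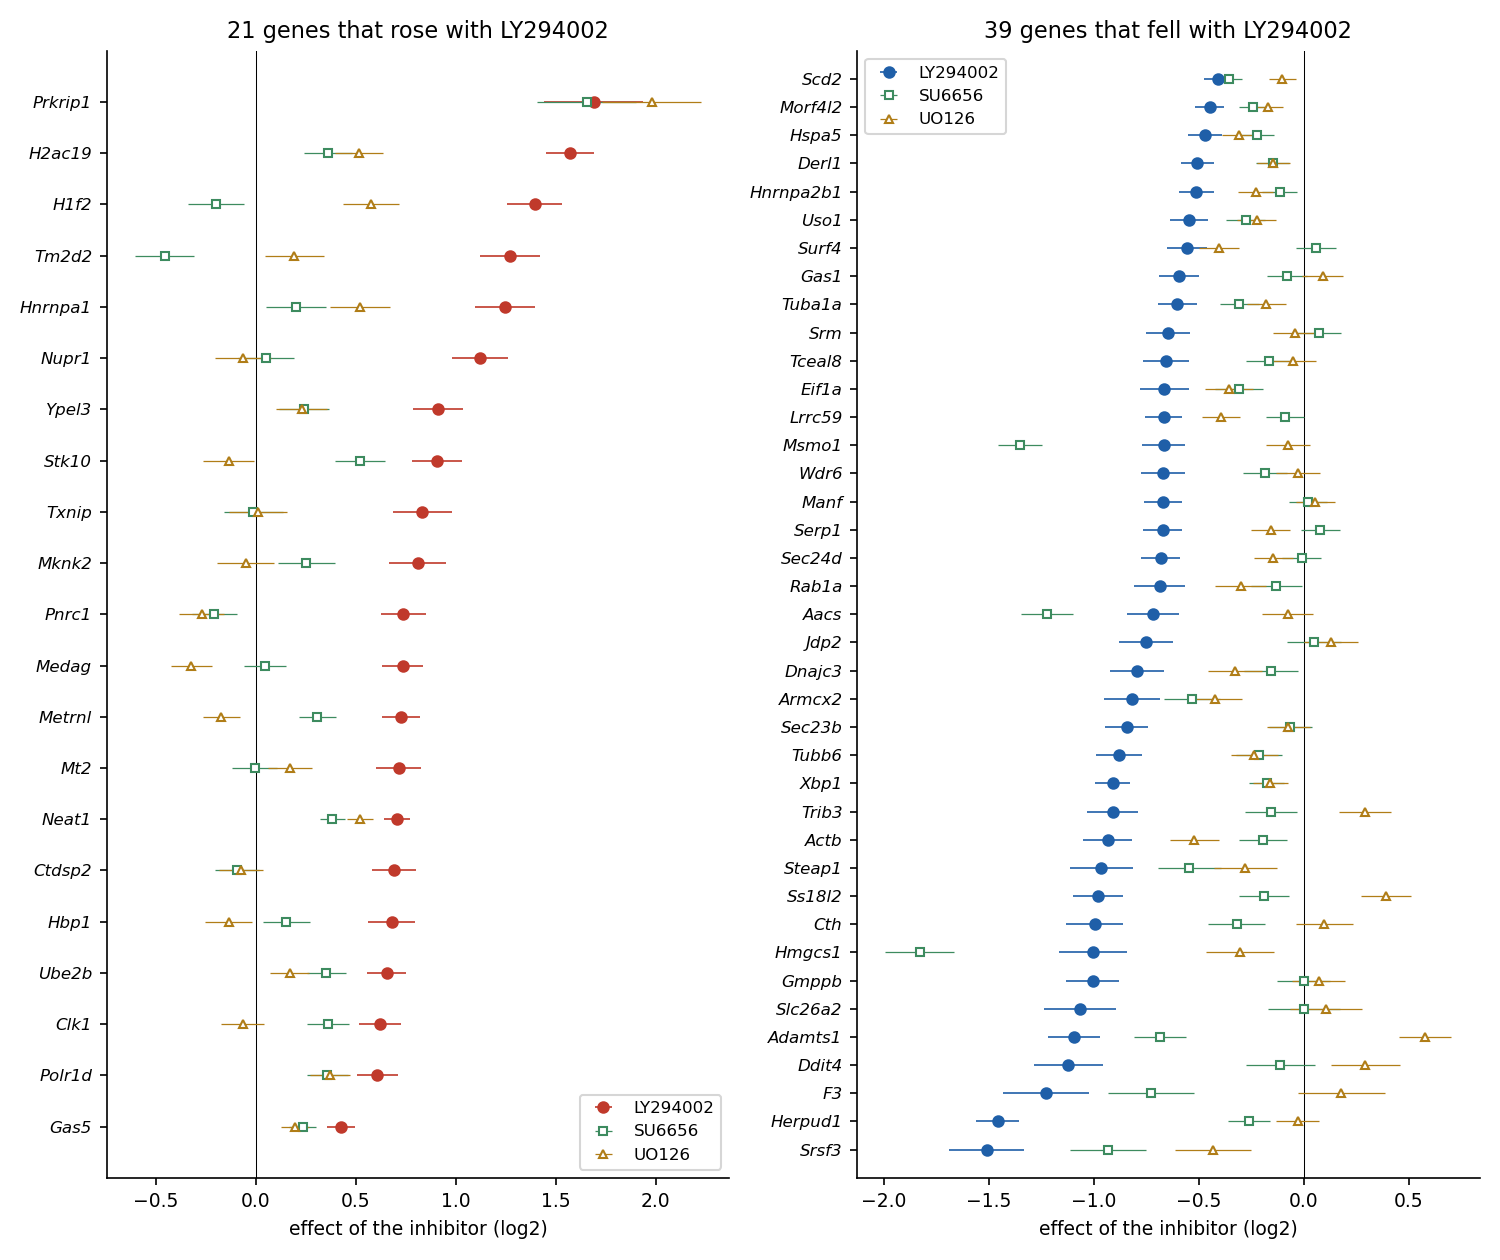
Effects of LY294002 (filled circles), SU6656 (squares) and UO126 (triangles) against the same vehicle and PDGF arrays (log2, bars ± SE of the fit) for the 21 named genes that rose and the 39 that fell with LY294002. For Prkrip1 the 3 effects are 1.69, 1.66 and 1.98, and SU6656 is below LY294002 for Hmgcs1, Msmo1 and Aacs.

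No member of the remaining lists was called at its brightest probe set. Median effects were -0.10 for glycolysis and HIF targets, 0.15 for MAPK feedback regulators, 0.07 for inflammatory NF-kB targets, 0.06 for secreted growth factors, 0.12 for SRF and actin genes and -0.08 for AU-rich element binders (0.0070 with the mean over the probe sets of a gene). They were -0.06 for G1 cyclins and CDK inhibitors, -0.09 for DNA replication and mitosis, -0.04 for ribosome biogenesis, -0.05 for ribosomal proteins (0.08 after scaling to a common median) and 0.09 for p53 targets. Cytosolic heat shock chaperones had a median of -0.05, the aryl hydrocarbon receptor battery 0.13, NRF2 targets -0.02 (0.02 after that scaling), interferon response genes -0.06, circadian clock genes 0.17 (0.065 with the mean over probe sets) and housekeeping genes -0.03 (0.07 after that scaling). In the HIF list the glucose transporter gene Slc2a1 read 949 and 702 units in quiescent cells and 2887 and 1334 under PDGF, and differed by -0.75 ± 0.27 (adjusted p = 0.266).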

How the data were processed

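RNA of NIH 3T3 cells was measured on 17 arrays, 1 per condition, deposited as a table of 8 arrays (22690 probe sets) and one of 9 (12488). Values are probe-set intensities on a linear scale, deposited by the authors already scaled to a common trimmed mean (2% trimmed, 500.2 in the 8-array table); the software that summarised probes is not given in the sources used here. The labels' descriptions gave each array's treatment. Probe sets were named through the platform annotation: 20393 had 1 gene, 691 several and 1606 none listed.

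Intensities of the 8-array table were quantile-normalised, and log2(value + 36.3 units), the 20th percentile, was analysed, so folds of dim genes are understated. The dimmest 30% of probe sets and 64 control probe sets were left out. limma 3.58.1 in R 4.3.3 fitted PDGF, LY294002, SU6656 and UO126 as additive terms with a variance trend (3 residual degrees of freedom), then a PDGF by LY294002 term (2), with Benjamini-Hochberg adjustment and a threshold of 0.05. A gene is given at its brightest probe set in lists and at its called probe set with the largest change otherwise. The number of arrays limits the precision. Scripts were tested on simulated data.

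Named were up to 12 genes with the largest change in each direction, up to 6 in each direction for the interaction and each inhibitor difference, called and leading list members, and PDGF-induced genes with the lowest and highest change. The other called genes were named after their values were seen. Members and lists were chosen with earlier results of these data known. Alternatives covered the scaling, pseudocount, filter, variance trend, terms of the fit, choice of probe set and leaving out each array.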

Additional observations from a re-analysis of the deposited data

Results flagged for a closer look

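In 9 of the 12 genes named for the interaction, the quiescent and PDGF changes with LY294002 had opposite signs, with 1 array per condition. The 12 are the 6 with the smallest interaction p in each direction, a choice that favours opposite signs. None passed the limma interaction test (adjusted p of 0.413 or more). Opposite signs were common: of all 9218 genes 2962 were higher in both states and 2719 lower in both. The change under PDGF minus the change in quiescent cells was 1.78 for Abcb8, 2.23 for Snd1, 1.02 for Snrpb2, 2.34 for Cdc73, 4.52 for Gpaa1 and 1.38 for Cxcl17, on the log2 scale. It was -2.26 for Itpkb, -1.45 for Ceacam1 and -2.75 for Neurl1a. This difference itself was not tested.

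Snd1 and Cdc73 read 19.8 and 16.1 units on the quiescent LY294002 array, against 193.1 and 164.7 with vehicle. Neurl1a read 18.0 units with PDGF and LY294002 against 223.2 with PDGF. Snrpb2 read 720.1, 518.3, 732.1 and 1105.3 units with vehicle, LY294002, PDGF and both.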

How the results depend on the processing

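The direction of the 60 called genes held without each array, which their choice on these same arrays makes likely. Only 2 of them, H2ac19 and Herpud1, passed without any 1 array. Leaving out 1 array gave 3 to 46 higher and 1 to 62 lower probe sets for the LY294002 effect, 2 to 85 and 0 to 65 for the difference from SU6656, 7 to 96 and 8 to 96 for that from UO126, and 0 to 2 for the interaction, which could not be fitted without either LY294002 array. Without a variance trend all 6 counts were 0. Without the PDGF term the LY294002 effect gave 0 and 0, with only the 4 arrays 117 and 145, and with the LY294002 arrays against all 6 others 49 and 44. Scaling to a common median left 27 lower, and 26 lower than with SU6656. Without the filter the counts were 21 and 24, 34 and 23 against SU6656, and 44 and 50 against UO126. Without probe sets that match several transcripts they were 12 and 22, 29 and 17, and 67 and 45. The causes were not tested.

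The 2-fold counts followed the treatment of dim probe sets. In quiescent cells the higher count became 181 with a pseudocount at the 10th percentile, 279 with no filter and 32 with the lowest 50% left out, and the lower count 285 and 24 with the last 2 settings. Under PDGF the higher count became 230, 344 and 35 and the lower count 337 and 40. In both states 35 or 4 were higher, and 23 or 1 lower, with no filter or the lowest 50% left out, and 29 or 8 lower with the pseudocount at the 10th percentile or 50 units. Of 105 recomputed list medians 95 kept their sign, and the largest shift was 0.144. No paired analysis was possible because each condition has 1 array.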

Other observations

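Cell cycle and clock genes, none of which passed the test, held some of the larger single values. Mcm7, a subunit of the replicative helicase, read 499.3 and 1011.1 units in quiescent cells and 473.7 and 766.8 under PDGF (0.81 ± 0.16, limma adjusted p = 0.0725), while Mcm2, of the same complex, read 632.8, 362.7, 578.6 and 376.3 units in that order (-0.66 ± 0.16, adjusted p = 0.118). Nr1d2, a repressor of the circadian clock, read 851.8 and 1256 units in quiescent cells and 601.5 and 1189.7 under PDGF (0.74 ± 0.15, adjusted p = 0.0676). The mitotic activator Cdc20 differed by -0.70 ± 0.16 (adjusted p = 0.0946), and the ribosome biogenesis gene Nop58 by -0.62 ± 0.14 (adjusted p = 0.0946).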
